A study of Caenorhabditis elegans with 16 samples.

Results

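ASEL and ASER are the left and right member of 1 pair of taste neurons in the head of the nematode Caenorhabditis elegans, and their transcripts were compared here in first-stage larvae. The cells were those that the authors' deposited annotation calls ASEL or ASER, which were 1189 of 151415 cells: 265 ASEL cells and 924 ASER cells. They came from single-cell RNA-seq of sorted neurons on the 10x Genomics droplet platform, in which each captured transcript carries a unique molecular identifier (UMI). UMIs were summed per library and side, and the 4 libraries with at least 10 cells of each side were tested, with 249 ASEL cells and 882 ASER cells.

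The ASE neurons sense salts and other water-soluble cues with receptor-type guanylyl cyclases, the gcy genes, in their cilia. The pair looks alike under the microscope but differs in function: ASEL responds to increases and ASER to decreases of salt concentration, and each side makes its own set of gcy receptors. The zinc finger factor CHE-1 sets the features that both sides share, and a loop that includes the microRNA lsy-6 and the factors COG-1, DIE-1, LIM-6 and FOZI-1 sets the side.

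The 4 tested libraries were live cells from hermaphrodites of otherwise wild-type strains that differed in the reporter used for sorting. The sensory sort (PS9221) used syIs764, GFP driven by the tax-4 and ocr-2 promoters (14 to 16 hph, the age unit in the labels), and the eat-4 sort (OH9625) used otIs292, an eat-4::mCherry reporter carried together with rol-6(su1006) (12 to 15 hph). The pan-neuronal sort, with 2 libraries of OH10689, used otIs355, nuclear TagRFP driven by a rab-3 promoter (11.5 to 14.5 hph). The 3 sorts used separate strains, and the eat-4 library is labelled as a biological replicate, while the labels do not say whether both pan-neuronal libraries came from separate cultures. The p-values below measure only the spread between these 4 libraries, which differ in strain, reporter and age. How the annotation assigned a side is not given in the sources used here. If the counts of a gene served to assign it, that gene had to differ, so the known side markers are given below as a check of the labels.

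ASER cells outnumbered ASEL cells in each tested library. The sensory sort held 145 ASEL cells and 542 ASER cells, and the eat-4 sort held 74 ASEL cells and 298 ASER cells. In the pan-neuronal sort there were 17 ASEL cells and 24 ASER cells in the library numbered 1, and 13 ASEL cells and 18 ASER cells in the one numbered 2. ASEL cells were thus 21.1% of ASE cells in the sensory sort (exact 95% interval 18.1 to 24.4), 19.9% in the eat-4 sort (16.0 to 24.3), 41.5% in pan-neuronal replicate 1 (26.3 to 57.9) and 41.9% in pan-neuronal replicate 2 (24.5 to 60.9). The intervals of both pan-neuronal libraries lay above those of the sensory and eat-4 sorts, and they cover counting error only. The geometric mean of the ratio of ASEL to ASER cells was 0.429 over the 4 libraries, with the same direction in 4 of 4 and an exact two-sided sign-flip permutation p = 0.125, the smallest that 4 libraries allow. Shares can be set by the reporter and its sort gate as well as by the annotation, and these were not told apart here.

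Depth per cell did not favour 1 side in all libraries. Median UMIs per cell were 366 in ASEL and 364.5 in ASER in the sensory sort, 461 in ASEL and 396 in ASER in the eat-4 sort, 602 in ASEL and 889 in ASER in replicate 1 of the pan-neuronal sort, and 1002 in ASEL and 1679 in ASER in replicate 2. The geometric mean ratio was 0.83 (exact sign-flip permutation p = 0.5). The summed depth was 86960 UMIs for ASEL and 309008 UMIs for ASER in the sensory sort, 48117 and 190172 UMIs in the eat-4 sort, 10563 and 20814 UMIs in pan-neuronal replicate 1, and 12352 and 30600 UMIs in replicate 2, in each case ASEL before ASER. Levels below are CPM, the UMIs of a gene per 1000000 UMIs of its sum. The pan-neuronal sums of ASEL are thin, and 1 UMI there is 94.7 CPM in replicate 1 and 81 CPM in replicate 2. Of the 1189 ASE cells, 40 had a barcode that also occurred in another library, and 0 shared it with another ASE cell.

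**Figure D1:**
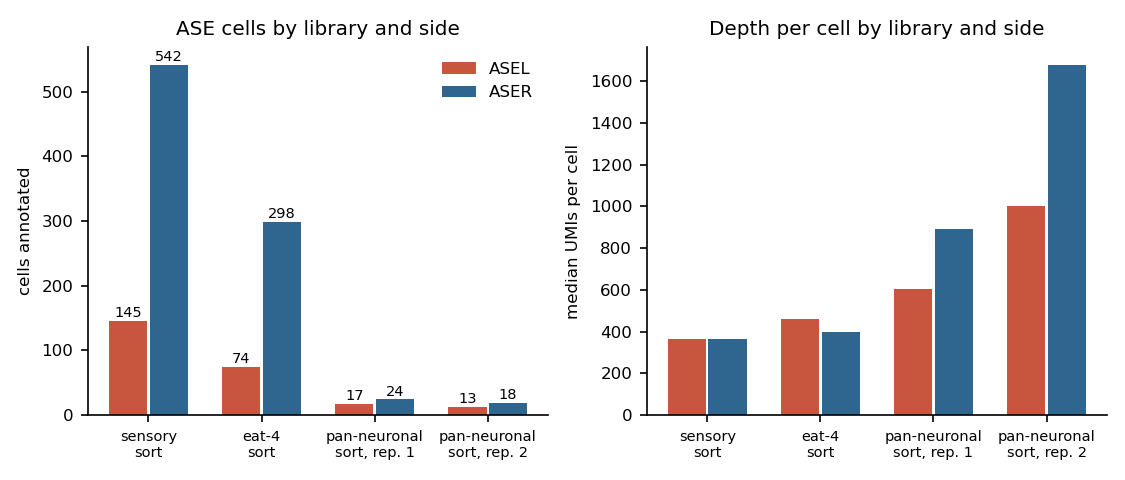
Number of cells annotated ASEL (red, left bar) and ASER (blue, right bar) in each tested library, and median UMIs per cell on each side; bars start at 0. ASER cells outnumbered ASEL cells in all 4 libraries, from 145 ASEL and 542 ASER cells in the sensory sort to 13 ASEL and 18 ASER cells in pan-neuronal replicate 2, while the order of the medians differed between libraries.

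The side markers followed the labels. A UMI of gcy-6 or gcy-7 was found in 173 of 249 ASEL cells (69.5%) and in 2 of 882 ASER cells (0.227%), at median depths of 407 and 394 UMIs. A UMI of gcy-5 or gcy-22 was found in 4 of 249 ASEL cells (1.61%) and in 319 of 882 ASER cells (36.2%). The same shares in AWC OFF, a sensory neuron class that should lack these genes, were 0.592% and 0.592% at a median of 600 UMIs. Each was 1 of 169 cells. In the sensory classes AWC ON and AFD the shares with gcy-6 or gcy-7 were 0% and 0%. Those with gcy-5 or gcy-22 were 0.811% in AWC ON and 0.304% in AFD. The ASER share of 0.227% lay within the range of these classes. The ASEL share of 1.61% was above all of them, with an exact interval of 0.439% to 4.06% that covers AWC ON and AWC OFF. Whether it was background was not tested. With each cell thinned to 200 UMIs, which left out 51 ASEL cells and 200 ASER cells, the share with gcy-6 or gcy-7 was 51.0% in ASEL and the share with gcy-5 or gcy-22 was 19.7% in ASER. Markers of both sides occurred together in 3 ASEL cells and 1 ASER cell.

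Of 18570 genes, 574 passed the filter on low counts, which needs enough UMIs in about as many sums as 1 side has libraries, and these held 71% of all ASE UMIs. With library as a block, 154 of the 574 genes (26.8%) differed between the sides at a Benjamini-Hochberg adjusted p under 0.05 in edgeR's quasi-likelihood test. ASEL was higher for 88 genes (15.3%) and ASER was higher for 66 genes (11.5%). Of these, 69 of the 88 and 61 of the 66 had the same direction in each of the 4 libraries, and for 69 of the 154 the CPM values of the sides did not overlap. The calls were made on these same libraries and favour genes with 1 direction, so these counts are a description. The shares over all tested genes are not given here. Fold changes below are log2 of ASEL over ASER with the standard error (SE) of the fit, and their median over all tested genes was -0.02. The balance of directions depended on the set of genes used for scaling: without the filter the split was 114 higher in ASEL and 184 higher in ASER of 10043 genes (2.97% called), and the fold changes of the genes in both fits shifted by -0.34 (log2). Leaving out 1 library also moved the counts. Without the sensory sort 31 genes were higher in ASEL and 35 in ASER (399 tested), without the eat-4 sort 34 and 34 (394 tested), without pan-neuronal replicate 1 143 and 108 (1009 tested), and without pan-neuronal replicate 2 125 and 92 (943 tested).

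**Figure D2:**
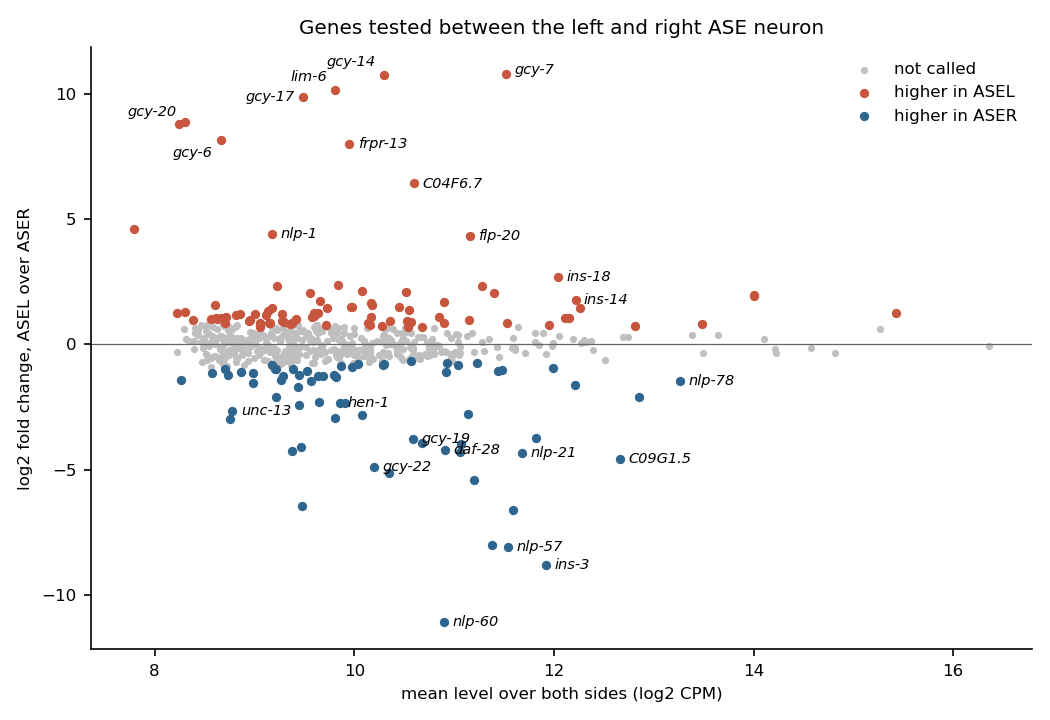
Each point is 1 of the 574 genes tested, with its mean level over both sides (log2 CPM, x axis) and its log2 fold change of ASEL over ASER (y axis); 88 genes called higher in ASEL are red, 66 called higher in ASER are blue, and the rest are grey. The gcy genes and lim-6 form the upper edge, and peptide genes such as nlp-60, ins-3 and nlp-57 form the lower edge.

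The receptor guanylyl cyclase genes gcy-6, gcy-7, gcy-14, gcy-17 and gcy-20 and the regulator lim-6 separated ASEL from ASER with almost no UMIs on the right. gcy-7, a chemosensory receptor gene of ASEL, stood at 4933, 6048, 2840.1 and 3724 CPM in ASEL of the sensory sort, the eat-4 sort and pan-neuronal replicates 1 and 2, against 3.24, 0, 0 and 0 CPM in ASER. The sides did not overlap, and 796 ASEL UMIs stood against 1 ASER UMI, a ratio of summed levels of 2774 (exact counting interval 496 to 109700) with a fitted log2 fold change of 10.77 ± 0.54 (SE; adjusted p = 3.2e-20 by edgeR's quasi-likelihood test). gcy-6 was lower in level, at 1024, 686, 284 and 324 CPM in ASEL and 3.24, 0, 0 and 0 CPM in ASER in the same order of libraries. Its ratio was 449.6 (79.3 to 17893), from 129 UMIs in ASEL and 1 UMI in ASER, and the sides did not overlap.

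gcy-14, which encodes a receptor that ASEL uses for alkaline pH, stood at 2299.9, 2432, 947 and 2105 CPM in ASEL and at 0 in ASER in all 4 libraries, at least 410.1-fold higher in ASEL when the ASER side is set to a floor of 3 UMIs over the 4 libraries. gcy-17 and gcy-20 were likewise at 0 in each ASER sum. In ASEL, gcy-17 stood at 1116, 1413, 947 and 1619 CPM (at least 227-fold), and gcy-20 at 782, 416, 663 and 324 CPM (at least 115-fold). For each of these 3 genes even the lowest ASEL library stood well above the ASER value of 0.

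The receptors were shared among single ASEL cells and were not spread over separate ones. Among the 110 ASEL cells with at least 500 UMIs, 0 lacked UMIs of all 5 genes gcy-6, gcy-7, gcy-14, gcy-17 and gcy-20, 6 cells held UMIs of 1 of them, 23 of 2, 26 of 3, 37 of 4 and 18 of all 5. Among the 347 ASER cells of that depth, 346 held none. Since a gene can be missed at this depth, the lower numbers do not show that a receptor was absent from a cell.

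lim-6, a LIM homeobox gene that represses ASER receptors in ASEL, stood at 1403, 1663, 947 and 2186 CPM in ASEL and at 0 in all 4 ASER sums, at least 278-fold higher in ASEL. A UMI of lim-6 was present in 115 of 249 ASEL cells (46.2%) and in 0 of 882 ASER cells, which allows up to 0.340% of ASER cells with a UMI (3 cells of 882). At this depth neither value is a limit on the share of cells that express the gene. The gene overlaps pfn-3 on the opposite strand, and gcy-7 overlaps pho-6 on the opposite strand, so reads of these pairs can be told apart only if the counting used strand, which is not given in the sources used here.

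On the right side, gcy-22 and gcy-19 passed the filter and fell in ASEL relative to ASER. gcy-22, a receptor gene needed for many ASER salt responses, stood at 34.5, 62.4, 0 and 0 CPM in ASEL, against 971, 1236, 1682 and 2386 CPM in ASER. gcy-19 stood at 92.0, 208, 0 and 81 CPM in ASEL, against 1473, 1888, 1586 and 2811 CPM in ASER. Neither gene overlapped between the sides, and the log2 fold changes were -4.88 ± 0.43 for gcy-22 (adjusted p = 7.1e-13) and -3.77 ± 0.35 for gcy-19 (adjusted p = 3.6e-12 by edgeR's quasi-likelihood test). A gcy-19 UMI occurred in 15 of 249 ASEL cells (6.02%) and in 396 of 882 ASER cells (44.9%), while the classes AWC ON, AWC OFF and AFD had it in at most 0.912% of cells. The exact 95% interval of the ASEL share of gcy-19, 3.41% to 9.74%, lay above those shares. gcy-22 overlaps T03D8.6 on the same strand.

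The other right-side receptors had too few UMIs for the filter and are given from the fit without it, in which 1.14% of 10043 genes were called higher in ASEL and 1.83% higher in ASER. gcy-5, the receptor gene most often used to label ASER, was at 0 in each ASEL sum and had 24, 23, 16 and 26 UMIs in ASER, which is 77.7, 121, 769 and 849.7 CPM (adjusted p = 3.9e-08 by edgeR's quasi-likelihood test without the filter; at least 8.51-fold higher in ASER). Its ASER level was higher in both pan-neuronal libraries than in both other sorts, and it overlaps ZK970.7 and M02G9.3 on the opposite strand. gcy-3 had 0 UMIs in ASEL and 161 and 118 UMIs in ASER of the sensory and eat-4 sorts (adjusted p = 8.1e-12 without the filter, edgeR; at least 26.7-fold higher in ASER), and gcy-4 had 0 UMIs in ASEL and 17 in ASER of each of these sorts (adjusted p = 0.035 without the filter, edgeR). In both pan-neuronal libraries gcy-1, gcy-3, gcy-4, che-1 and hlh-16 had 0 UMIs in every cell of every class, so those libraries say nothing about them. gcy-13, also at 0 in both, had 0 UMIs in ASEL, and 27 UMIs in ASER of the sensory sort and 7 in the eat-4 sort (adjusted p = 0.048 without the filter, edgeR). gcy-1 had 0 UMIs in ASEL and 5 in ASER of each of these sorts and was not called.

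Of the 27 receptor guanylyl cyclase genes in the files, 7 passed the filter. Of these, 5 were called higher in ASEL and 2 higher in ASER, beside 15.3% and 11.5% of all tested genes. A gene could pass through 1 side alone, so this count is not evidence for the family. Without the filter, 22 had UMIs, with 5 called higher in ASEL and 6 higher in ASER, beside 1.14% and 1.83% of all 10043 genes in that fit. Among those not called were gcy-9, highest in BAG of the neuron classes compared, and gcy-12 and gcy-28, both highest in DA motor neurons. gcy-28 was broad, at over 100 CPM in 88 other neuron classes and at 204 CPM in ASEL and 179 CPM in ASER, all libraries pooled.

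**Figure D3:**
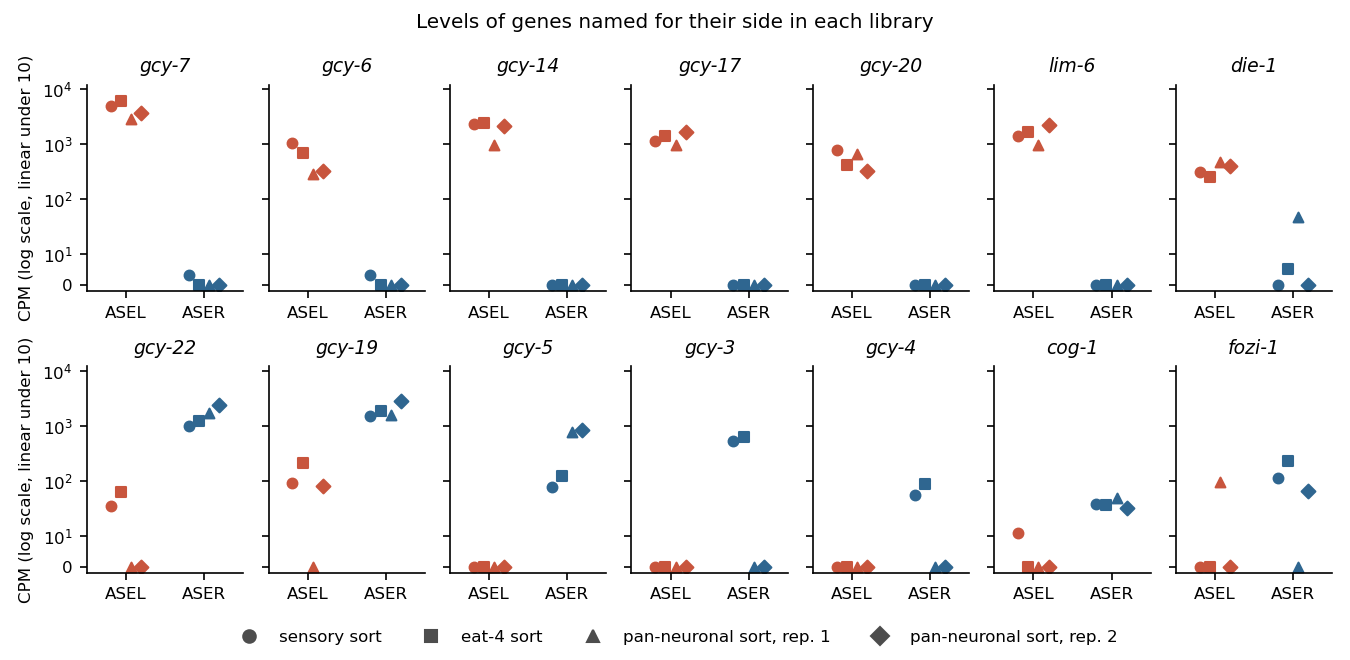
CPM of 14 genes in ASEL (red, left) and ASER (blue, right); each point is 1 library, its shape gives the sort, and the axis is logarithmic above 10 CPM and linear below. The upper row holds ASEL-side genes and the lower row ASER-side genes; gcy-3 and gcy-4 were at 0 in the pan-neuronal libraries, and fozi-1 had 1 UMI in ASEL of pan-neuronal replicate 1.

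Among the regulators of asymmetry, die-1 and fozi-1 differed by side in the fit without the filter, and cog-1 did not reach the threshold. die-1, a zinc finger gene that promotes the ASEL fate, had 27, 12, 5 and 5 UMIs in ASEL and 0, 1, 1 and 0 in ASER, a ratio of summed levels of 85.4 (exact counting interval 22.4 to 725; adjusted p = 2.3e-13 without the filter by edgeR's quasi-likelihood test). Its sides did not overlap. fozi-1, a zinc finger gene that acts in ASER, had 0, 0, 1 and 0 UMIs in ASEL and 35, 43, 0 and 2 in ASER, a ratio of ASER over ASEL of 23 (4.00 to 918; adjusted p = 0.00034 without the filter, edgeR), and the sides overlapped through pan-neuronal replicate 1.

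cog-1, the homeobox gene of ASER, had 1, 0, 0 and 0 UMIs in ASEL and 12, 7, 1 and 1 in ASER. That ratio of ASER over ASEL was 6.03 with a counting interval of 0.969 to 249, so a difference was not detectable at this depth (adjusted p = 0.61 without the filter, edgeR), although ASER was higher in 4 of 4 libraries. Of the 16 regulators listed, 10 were in the files and 0 passed the filter, and 6 of them (the microRNA lsy-6, lsy-5, lsy-9, lsy-27, tbx-37 and tbx-38) were not analysed here under these names. hlh-16 had 1 and 5 UMIs in ASEL and 0 in ASER of the sensory and eat-4 sorts and was not called. The broadly used cofactors lsy-2, lsy-12, lsy-13, lsy-22, lin-49 and unc-37 had between 2 and 26 UMIs in ASEL and between 5 and 58 UMIs in ASER over the 4 libraries and were not called in that fit, and nhr-67 had 0 UMIs on both sides. Of these, lsy-12 had 26 UMIs in ASEL and 28 in ASER, a ratio of summed levels of 3.24 (1.82 to 5.73). ASEL was higher in 2 libraries and ASER in 2. lsy-12 was called higher in ASEL when genes with at least 20 UMIs were tested (adjusted p = 0.032, edgeR).

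Of 8 genes listed as shared by both ASE neurons, 3 passed the filter. Of these 1, the peptide gene nlp-14 described below, was called, higher in ASER, beside 11.5% of all tested genes. che-1 had 19 and 7 UMIs in ASEL and 87 and 36 UMIs in ASER of the sensory and eat-4 sorts, which is 218 and 145 CPM in ASEL and 282 and 189 CPM in ASER. ceh-36, a homeobox gene of ASE and AWC, stood at 678, 707, 852 and 1214 CPM in ASEL and 469, 931, 432 and 556 CPM in ASER (log2 fold change 0.47 ± 0.28; adjusted p = 0.22, edgeR's quasi-likelihood test). flp-6, a peptide gene of ASE, stood at 8049.7, 13010, 8994 and 10606 CPM in ASEL and 6097, 9996, 7447 and 9281 CPM in ASER (0.37 ± 0.25; adjusted p = 0.28, same test). The values of ceh-36 and flp-6 overlapped between the sides. A flp-6 UMI was also present in 66.5% of AWC ON, 71.6% of AWC OFF and 67.5% of AFD cells, so its share of 85.5% in ASEL and 78.3% in ASER cells is not far above that of other classes.

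The cGMP pathway downstream of the receptors, which opens the TAX-2/TAX-4 channel, showed no called gene. Of 23 genes in the files 4 passed the filter and 0 were called, with a median log2 fold change of -0.18, beside 26.8% of all tested genes called. So few genes show nothing about the pathway. tax-2 had 14 UMIs in ASEL and 22 in ASER, and tax-4 had 14 UMIs in ASEL and 20 in ASER over the 4 libraries. As the ASEL sums are less deep, the ratios of summed levels of ASEL over ASER were 2.22 for tax-2 (exact counting interval 1.05 to 4.53) and 2.44 for tax-4 (1.14 to 5.08). Neither gene was called without the filter. The largest of the 4 was cnb-1, the regulatory subunit of calcineurin, at 0.77 ± 0.31 (adjusted p = 0.056, edgeR's quasi-likelihood test) with ASEL above ASER in 4 of 4 libraries.

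Insulin-like peptide genes were split between the sides. ins-3, an insulin-like gene, stood at 23, 0, 0 and 0 CPM in ASEL against 7372, 6258, 4805 and 2614 CPM in ASER. That was 2 UMIs in ASEL and 3648 in ASER, a ratio of ASER over ASEL of 523 (exact counting interval 145 to 4324; log2 fold change -8.80 ± 0.55, adjusted p = 1.9e-17 by edgeR's quasi-likelihood test), and it was the gene with the smallest p on the right. daf-28, an insulin-like agonist of the DAF-2 receptor that keeps larvae out of the dauer stage, stood at 149, 145, 189 and 0 CPM in ASEL and 3935, 1825, 1393 and 2222 CPM in ASER (-4.20 ± 0.38). ins-26 was called higher in ASER (-1.63 ± 0.36), but the sides overlapped, with 1231 CPM in ASEL and 1123 CPM in ASER of the sensory sort.

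On the left, ins-18, an insulin-like gene that acts as an antagonist in dauer control, stood at 6014, 4302, 6438 and 5019 CPM in ASEL against 1816, 552, 673 and 686 CPM in ASER (2.69 ± 0.30, adjusted p = 5.1e-10 by edgeR's quasi-likelihood test). The lowest ASEL library was above the highest ASER library. ins-14 also did not overlap, at 3576, 4053, 10319 and 4291 CPM in ASEL and 1126, 815, 2546 and 2484 CPM in ASER (1.78 ± 0.29). ins-23 was at 3162, 1642, 1420 and 1619 CPM in ASEL and 1968, 705, 144 and 0 CPM in ASER (1.70 ± 0.35), higher in ASEL in each tested library, though the groups overlapped. Its ASER values in pan-neuronal replicates 1 and 2 were 3 and 0 UMIs. Of 38 insulin-like genes in the files 8 passed the filter, with 3 called higher in ASEL and 3 higher in ASER, at a median of -0.37. Over all tested genes these shares were 15.3% and 11.5%, and here too a gene could pass through 1 side alone.

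ins-1, which acts in salt learning, did not pass the filter. It had 1 UMI in ASEL and 392 UMIs in ASER of the sensory sort, 0 and 23 UMIs in the eat-4 sort, ASEL first, and 0 on both sides of the pan-neuronal libraries. The ratio of ASER over ASEL was 119 (21.3 to 4715; adjusted p = 1.2e-10 without the filter by edgeR's quasi-likelihood test), and its ASER UMIs came from 228 cells, so no single cell carried it. The insulin-like genes ins-21 and ins-4 were also called higher in ASER without the filter, each with 0 UMIs in ASEL, and ins-15 higher in ASEL with 80 UMIs in ASEL against 28 in ASER.

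Of the families listed, the neuropeptide-like protein (nlp) genes had the most members called higher in ASER. Of 74 in the files 15 passed the filter, with 2 called higher in ASEL and 12 higher in ASER, beside 15.3% and 11.5% of all tested genes. The median log2 fold change of the 15 was -2.43, beside -0.02 over all tested genes. As a gene could pass through ASER alone, this is a description of the genes that passed. nlp-60 was at 0 in all 4 ASEL sums and at 3815, 2177, 2306 and 1471 CPM in ASER, at least 161-fold higher in ASER. nlp-57 stood at 34.5, 0, 0 and 0 CPM in ASEL against 8126, 3134, 2258 and 2026 CPM in ASER, a ratio of ASER over ASEL of 308 (105 to 1492).

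nlp-7 stood at 34.5, 125, 0 and 81 CPM in ASEL against 3502, 2498, 4516 and 1928 CPM in ASER (log2 fold change -5.43 ± 0.43). nlp-21 stood at 126, 208, 284 and 81 CPM in ASEL against 4133, 1751, 6870.4 and 4608 CPM in ASER (-4.32 ± 0.38). nlp-59 stood at 126, 125, 284 and 81 CPM in ASEL against 3330.0, 1662, 1297 and 1405 CPM in ASER (-3.95 ± 0.37). None of these 5 nlp genes overlapped between the sides in any library, and nlp-21 overlaps subs-4 on the opposite strand.

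nlp-5 stood at 34.5, 0, 1420 and 0 CPM in ASEL against 3304, 2803, 2546 and 1569 CPM in ASER (-4.28 ± 0.54). The ASEL value of pan-neuronal replicate 1 was 15 UMIs, all from 1 cell, which was 83.3% of the ASEL UMIs of that gene. That cell also held 160 of the 161 ASEL UMIs of nlp-71, and 5 UMIs of gcy-7, gcy-14 and lim-6 together. Even with it, the highest ASEL value of nlp-5 lay below the lowest ASER value. nlp-8 (-4.26 ± 0.51) and nlp-14 (-2.43 ± 0.40) did not overlap either, and nlp-13, nlp-50, nlp-69 and nlp-78 were called higher in ASER at log2 fold changes between -1.52 and -1.11 with overlapping sides. nlp-69 stood the other way round in pan-neuronal replicate 1, at 1041 CPM in ASEL and 625 CPM in ASER. The calls of nlp-50 and nlp-69 were lost without the sensory sort (adjusted p = 0.23 and 0.20, edgeR) and that of nlp-69 without the eat-4 sort (adjusted p = 0.058, edgeR).

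The nlp genes called higher in ASEL were nlp-1 and nlp-47. nlp-1 stood at 655, 998, 1136 and 1700.1 CPM in ASEL against 29.1, 57.8, 96.1 and 32.7 CPM in ASER (4.42 ± 0.33, adjusted p = 3.6e-15 by edgeR's quasi-likelihood test), with no overlap. nlp-47 stood at 3219.9, 3263, 4166 and 4129 CPM in ASEL and 2650.4, 2093, 2066 and 1928 CPM in ASER (0.79 ± 0.27), and lost its call when any 1 of the 4 libraries was left out, with adjusted p between 0.051 and 0.18 (edgeR), and without the filter on low counts (adjusted p = 0.82, edgeR).

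Among FMRFamide-like (flp) genes, flp-20 was higher in ASEL and flp-9 was higher in ASER. flp-20 stood at 6118, 3325, 1231 and 1214 CPM in ASEL against 278, 268, 0 and 32.7 CPM in ASER (4.33 ± 0.34). flp-9 stood at 0, 229, 379 and 486 CPM in ASEL against 968, 1178, 1922 and 1078 CPM in ASER (-2.82 ± 0.41). The sides overlapped for neither gene, and 4 of 30 flp genes passed the filter. Without the filter, flp-15 had 0 UMIs in ASEL and 78, 57, 5 and 5 UMIs in ASER, from 105 cells.

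**Figure D4:**
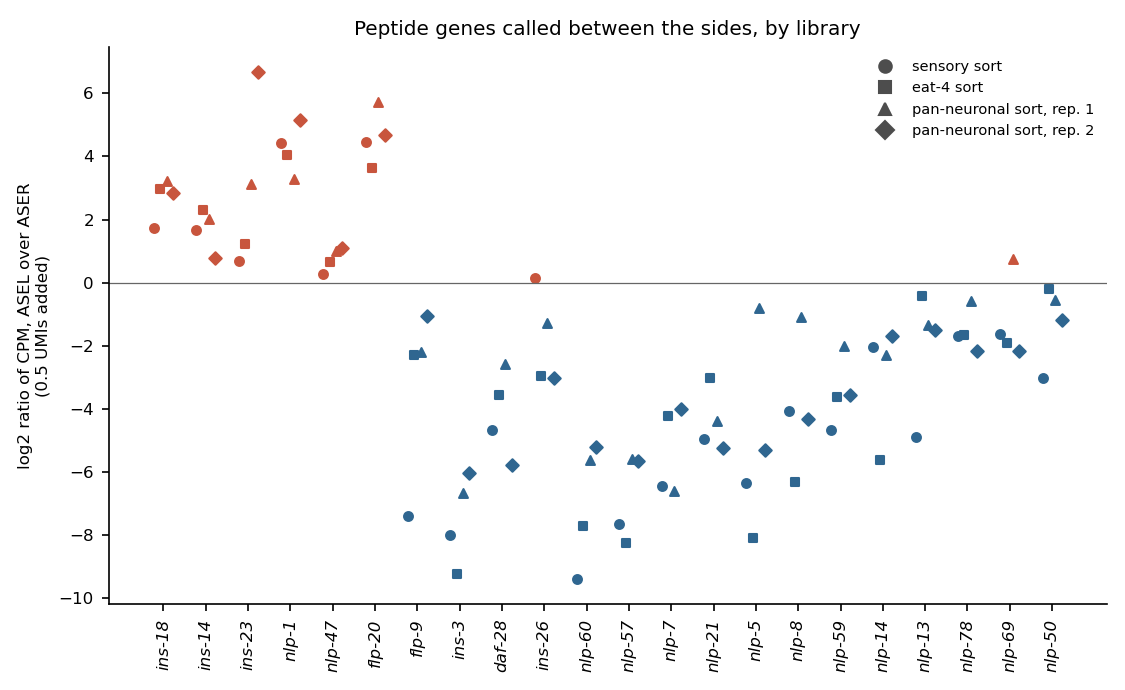
Log2 ratio of CPM of ASEL over ASER (0.5 UMIs added to each sum) for the 22 insulin-like, nlp and flp genes called between the sides; each point is 1 library, its shape gives the sort, and red and blue mark values above and below 0. Most genes keep 1 direction in all 4 libraries; ins-26 in the sensory sort and nlp-69 in pan-neuronal replicate 1 lie above 0 although called higher in ASER.

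Among genes of salt learning outside these families, hen-1 was called higher in ASER and daf-2 higher in ASEL. hen-1, which encodes a secreted LDL-receptor-motif protein used for integrating sensory signals, stood at 276, 166, 0 and 81 CPM in ASEL against 1007, 936, 1297 and 1013 CPM in ASER (-2.34 ± 0.35) with no overlap. daf-2, the insulin receptor gene, was called higher in ASEL at 0.84 ± 0.31 (adjusted p = 0.035, edgeR's quasi-likelihood test), with 322, 499, 379 and 405 CPM in ASEL and 214, 294, 96.1 and 261 CPM in ASER. That call was lost without pan-neuronal replicate 1 (adjusted p = 0.11, edgeR) and without replicate 2 (adjusted p = 0.068, edgeR), as well as without the filter on low counts (adjusted p = 0.94, edgeR). casy-1, a calsyntenin gene needed for salt learning, was not called (0.44 ± 0.27) and stood at 2645, 2889, 2367 and 3805 CPM in ASEL and 1686, 2535, 1634 and 3464 CPM in ASER. Of 11 learning genes listed, 6 passed the filter, with 1 called in each direction, beside 15.3% higher in ASEL and 11.5% higher in ASER over all tested genes.

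Of 18 genes of synaptic release listed 9 passed the filter, with 0 called higher in ASEL and 3 higher in ASER, beside 15.3% and 11.5% of all tested genes, and a median log2 fold change of -0.16. So few genes show nothing about the group, and 2 of the 3 calls were lost without 1 library. unc-13, which primes synaptic vesicles, stood at 57.5, 62.4, 94.7 and 81 CPM in ASEL against 353, 499.6, 721 and 490.2 CPM in ASER (-2.65 ± 0.42, adjusted p = 1.3e-06 by edgeR's quasi-likelihood test), with no overlap. ric-4, the SNAP-25 gene, was at -1.04 ± 0.28 and lost its call without the sensory sort (adjusted p = 0.057, edgeR) and without the eat-4 sort (adjusted p = 0.098, edgeR). egl-3, a proprotein convertase gene that processes neuropeptides, was at -0.66 ± 0.25 (adjusted p = 0.047, edgeR) and lost its call without the sensory sort, the eat-4 sort or pan-neuronal replicate 1, with adjusted p between 0.079 and 0.25. ric-4 and egl-3 overlapped between the sides.

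Of 28 cilium and transport genes 7 passed the filter, with 1 called on each side, a share near the 26.8% of all tested genes. bbs-2, a BBSome gene, stood at 1713, 665, 379 and 324 CPM in ASEL and 544, 299.7, 240.2 and 163 CPM in ASER (1.44 ± 0.31). It was higher in ASEL within each library while the groups overlapped across libraries, and it was not called without the filter on low counts (adjusted p = 0.13, edgeR). che-3, the heavy chain of the ciliary dynein motor, stood at 356, 374, 0 and 162 CPM in ASEL and 779.9, 531, 384 and 621 CPM in ASER, without overlap. It was called higher in ASER at -0.98 ± 0.35 (adjusted p = 0.029, edgeR's quasi-likelihood test), and that call was lost without pan-neuronal replicate 2 (adjusted p = 0.056, edgeR).

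Outside the listed families, the genes with the smallest p on the left were frpr-13, an FMRFamide-peptide-receptor-like gene, fbxa-215, an F-box gene, nhr-105, a nuclear hormone receptor gene, and the uncharacterised genes C04F6.7, C38C3.6 and F45D3.4. frpr-13 stood at 2288, 1704, 947 and 809.6 CPM in ASEL against 12.9, 0, 0 and 0 CPM in ASER (7.98 ± 0.47). C04F6.7 stood at 3657, 1372, 2556 and 2186 CPM in ASEL against 58.3, 5.26, 48.0 and 0 CPM in ASER (6.42 ± 0.37). fbxa-215 was at 598, 603, 473 and 486 CPM in ASEL and at 0 in all 4 ASER sums, at least 107-fold higher in ASEL. For each of these 3 genes the sides stood far apart in all libraries.

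nhr-105 stood at 1529, 1413, 568 and 1619 CPM in ASEL and 278, 426, 192 and 458 CPM in ASER (2.11 ± 0.28), without overlap. C38C3.6 was at 2.31 ± 0.30 without overlap, and F45D3.4 at 2.37 ± 0.31 with overlapping groups, since ASEL of pan-neuronal replicate 1 held 1 UMI of it.

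On the right the corresponding genes were msa-1 and the uncharacterised K03B4.4, K07C5.9, C09G1.5, H35N09.1 and T20B3.14. K03B4.4 stood at 11.5, 20.8, 0 and 0 CPM in ASEL against 4702, 2719, 3699 and 3039 CPM in ASER, a ratio of ASER over ASEL of 307 (84.9 to 2537). K07C5.9 stood at 46.0, 41.6, 0 and 0 CPM in ASEL against 4333, 2971, 5093 and 4216 CPM in ASER (-6.60 ± 0.45). C09G1.5 was among the most abundant transcripts that differed, at 494, 395, 189 and 81 CPM in ASEL against 7434, 9839, 9897 and 7614 CPM in ASER (-4.57 ± 0.35).

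All 6 of these right-side genes kept the sides apart in each library. H35N09.1 stood at -3.75 ± 0.36, msa-1 at -5.11 ± 0.44, and T20B3.14 had 1 UMI in ASEL and 356 UMIs in ASER, a ratio of ASER over ASEL of 102 (18.2 to 4046). msa-1 overlaps lpl-1 and T20B3.14 overlaps T20B3.1, each on the opposite strand.

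None of the 1002 chemoreceptor genes of the sr and str families passed the filter. Without it, 144 had UMIs in ASE cells, with 0 called higher in ASEL and 5 called higher in ASER, beside 1.14% and 1.83% of all 10043 genes in that fit. The 5 were srsx-17, srxa-5, sre-4, srr-4 and sre-14. srsx-17 had 0 UMIs in ASEL and 212, 50, 1 and 6 UMIs in ASER, from 141 cells, and srxa-5 had 0 UMIs in ASEL and 54, 12, 1 and 3 in ASER, from 64 cells. sre-4 had 11, 4, 0 and 3 UMIs in ASEL and 177, 114, 0 and 14 in ASER (log2 fold change without the filter -2.36 ± 0.49, adjusted p = 0.00012, edgeR).

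Housekeeping genes had few calls. Of 71 ribosomal protein genes tested 0 were called higher in ASEL and 3 higher in ASER, at a median log2 fold change of -0.37. The 12 mitochondrially encoded genes tested had 0 calls at a median of 0.39. Over all tested genes 26.8% were called. Both medians lay on opposite sides of the median of -0.02 over all tested genes, and the cause was not tested. F44E5.4 and F44E5.5, a pair of hsp70-like genes of similar sequence whose reads may be shared, summed to 14466 CPM in ASEL and 4955 CPM in ASER of the sensory sort and 20242 CPM in ASEL and 10427 CPM in ASER of the eat-4 sort, but to 189 CPM in ASEL and 144 CPM in ASER, and 405 CPM in ASEL and 359 CPM in ASER, of pan-neuronal replicates 1 and 2. F44E5.4 (1.46 ± 0.35) and F44E5.5 (1.06 ± 0.34) were called higher in ASEL, while the 6 hsp genes tested had 0 calls.

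A further 2 libraries with fewer cells of a side were compared with no test. They held 7 ASEL cells and 12 ASER cells (the combined unc-4, ceh-2 and acr-2 sort) and 5 ASEL cells and 5 ASER cells (the unc-86 sort). With their UMIs pooled, 76 of the 87 left-called genes with at least 3 UMIs and 60 of the 64 right-called genes lay in the same direction. Among the called genes whose log2 fold change was 1 or more in size, these were 54 of 58 and 45 of 49. The share over all tested genes is not given here, and UMI shares were compared with no scaling factor. These counts are thus a description without a baseline. A left-called gene that went the other way was ins-23. In the combined sort it had 1 UMI of 16085 in ASEL and 48 of 15797 in ASER, and in the unc-86 sort 3 UMIs in ASEL and 2 in ASER. The cells of these libraries carry the same annotation, so this is no independent check of the labels.

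Set beside 125 neuron classes with at least 20 cells, over all libraries pooled and as levels of each gene compared between classes, ASEL was the highest class for gcy-6, gcy-7, gcy-14, gcy-17, gcy-20, fbxa-215, C04F6.7, frpr-13, ins-14, ins-23 and die-1. gcy-7 was at 4604 CPM in ASEL and 21.3 CPM in the next class outside the pair, ASH. die-1 was at 317 CPM in ASEL and 313 CPM in NSM, which does not set ASEL apart. lim-6 was second in ASEL (1422 CPM) after the lateral RME neurons (1625 CPM).

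ASER was the highest class for gcy-22, gcy-19, gcy-3, nlp-60, C09G1.5 and H35N09.1. gcy-19 was at 1764 CPM in ASER, 107 CPM in ASEL and 51.6 CPM in the next class, I6. gcy-5 stood at 152 CPM in ASER and 239.7 CPM in RIG. As ASER alone ran between 77.7 CPM in the sensory sort and 849.7 CPM in pan-neuronal replicate 2, that order of pooled levels can depend on which libraries hold the cells of each class, which was not tested. ins-3, the strongest right-side insulin-like gene, was at 6501 CPM in ASER, 7888 CPM in ASJ and 6550.3 CPM in ASI. che-1 was highest in both ASE neurons, at 139.5 CPM in ASEL and 210.2 CPM in ASER, with 9.87 CPM in AFD as the next.

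**Figure D5:**
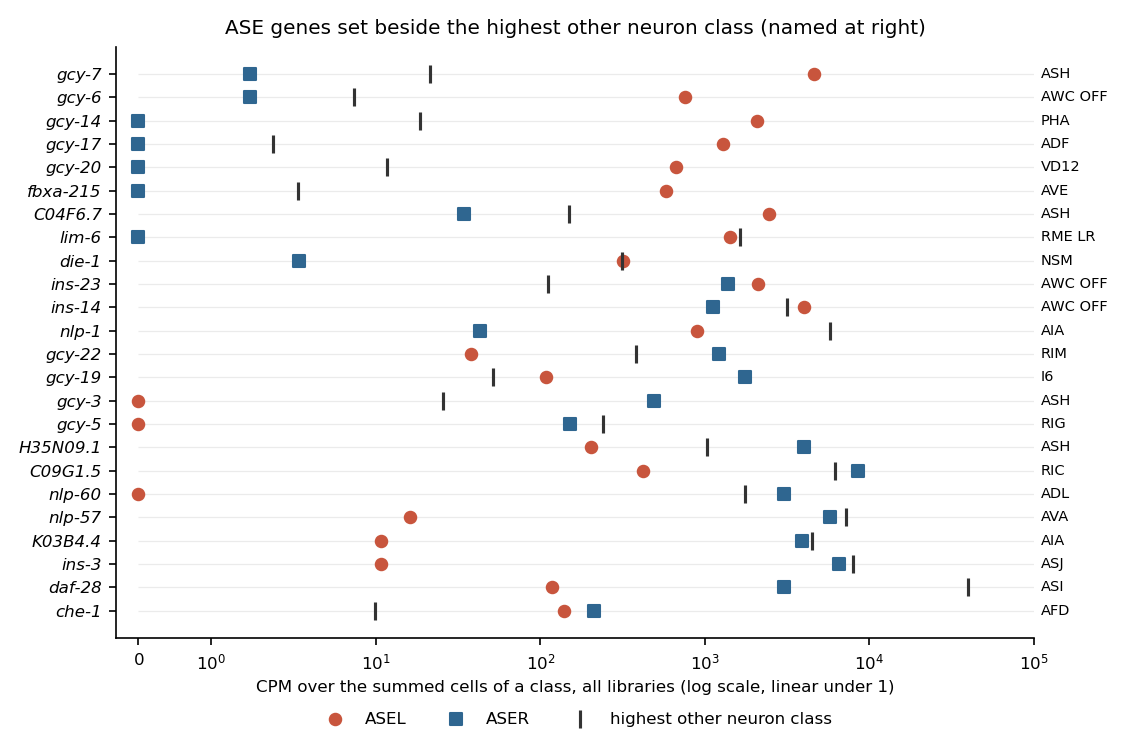
CPM of 24 genes over the summed cells of ASEL (red circle), ASER (blue square) and the highest of the other neuron classes (bar, named at right), all libraries pooled; the axis is logarithmic above 1 CPM and linear below. The left gcy genes lie far right of any other class, whereas nlp-1, daf-28 and ins-3 are exceeded by another class.

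Markers of other cells were low in ASE sums with some exceptions. Of 22 markers of other sensory and touch neurons, those of AFD, ASK, ASH, AWB and ASG were at 0 on both sides of all 4 libraries. All markers together stood at 80.5, 1954, 0 and 81 CPM in ASEL and 401, 110.4, 1297 and 3170 CPM in ASER. In the eat-4 sort the touch neuron genes mec-7, mec-17 and mec-18 had 81 UMIs in ASEL and 17 UMIs in ASER, and 18 of the 41 ASEL UMIs of mec-7 came from 1 of the 5 ASEL cells that held it. In the sensory sort the BAG peptide gene flp-17 had 1 UMI in ASEL and 90 in ASER, of which 80 were in 1 cell. The other BAG marker, gcy-33, had 3, 13, 0 and 1 UMIs in ASEL and 8, 1, 0 and 0 UMIs in ASER of the 4 libraries (log2 fold change 2.50 ± 0.79, adjusted p = 0.051 without the filter, edgeR), and was called higher in ASEL when genes with at least 20 UMIs were tested (adjusted p = 0.021, edgeR).

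daf-7, the TGF-beta gene that marks ASI, had 0 UMIs in all 4 ASEL sums and 17, 2, 26 and 97 UMIs in ASER, which was 1249 and 3170 CPM in ASER of pan-neuronal replicates 1 and 2. These came from 28 ASER cells, with 56 of the 142 UMIs in 1 cell, while str-3, the other ASI marker, was at 0. In these libraries daf-7 stood at 28616 and 90288 CPM in ASI, 8457.5 and 12949 CPM in AWA, and 3947 and 8563 CPM in ASG. The part of other cell types in the differences between the sides was not tested. The muscle myosin gene unc-54 was abundant on both sides, at 12994, 166, 42412 and 75858 CPM in ASEL and 13362, 89.4, 20611 and 50784 CPM in ASER, with myo-3 at 0 in the sensory and pan-neuronal libraries, and it was not called (0.61 ± 0.25, adjusted p = 0.069, edgeR's quasi-likelihood test). This level was not particular to ASE. With all libraries pooled, unc-54 was over 100 CPM in 123 other neuron classes. Their median was 30054 CPM, against 14806 CPM in ASEL and 10660 CPM in ASER. In the eat-4 sort 10.8% of ASEL cells and 3.36% of ASER cells held a UMI of unc-54, against 91.7% and 93.2% in the sensory sort. The cause was not tested. The co-injected gene rol-6 had 180 UMIs in ASEL and 262 in ASER of the eat-4 sort, which was 3741 CPM in ASEL and 1378 CPM in ASER. There 59.5% of ASEL cells and 41.3% of ASER cells held a UMI of rol-6. It was not called in the fit without the filter.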

How the data were processed

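The authors deposited 1 table of unnormalised UMI counts of every gene in every cell, made with Cell Ranger 6.0.0 per the submitters' processing notes, and a table that gives each cell's class. The genome build, cell filters, doublet treatment, background correction and the use of strand in counting are not stated in these sources, and no doublet caller was run. UMI counts were summed per library and side with Python 3.11.15, pandas 2.3.3 and numpy 2.4.6 for libraries with at least 10 cells of each side. Libraries are the replicates, not cells. Both sides of a library come from the same droplets, so library was a block in edgeR 4.0.16 (TMM scaling, filterByExpr, quasi-likelihood test, R 4.3.3) with Benjamini-Hochberg adjustment over all genes tested. Summed depth ran between 10563 and 309008 UMIs.

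On simulated counts with known changes for this comparison, 94.1% of 187 changed genes were recovered, and 82.0% of those changed 2-fold. The 9 false calls were among the unchanged genes of the 527 tested. Counts were simulated with the trend of spread by level only, for genes that passed the filter. Spread particular to a gene, or from single cells that hold most of its UMIs, was left out. These rates therefore need not hold for the real sums. Cell numbers and median UMIs were compared by exact sign-flip permutation over libraries (scipy 1.17.1). Shares have exact Clopper-Pearson 95% intervals and ratios of UMIs exact conditional intervals, both for counting error only. Genes named were the 15 with the smallest p per direction with a log2 fold change of at least 1 in size, the side markers, the regulators, identity genes and cyclases listed for ASE, and the called members of the listed pathways and families. Genes from the fit without the filter, uncalled genes of other lists, F44E5.4, F44E5.5, daf-7 and unc-54 were named after their values were seen. The members and lists were chosen with earlier results of these data known. Alternatives included DESeq2 1.42.0, other filters and cell minimums, no block, and leaving out each library. Sequences and coordinates were not used here.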

Additional observations from a re-analysis of the deposited data

Results flagged for a closer look

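In 3 of 53 results 1 library stood apart from the other 3 in its log2 ratio of ASEL over ASER, and chance marks about 1 in 20. K03B4.4 had a log2 ratio of -8.09 in the sensory sort, beyond the other libraries in the same direction. ASEL held 1, 1, 0 and 0 UMIs of it in the sensory sort, the eat-4 sort and pan-neuronal replicates 1 and 2. The size of these ratios therefore depends on the depth of the sums and the 0.5 UMIs added. nlp-14 had -5.61 in the eat-4 sort, where ASEL held 0 UMIs. daf-2 had 1.83 in pan-neuronal replicate 1, where ASEL held 4 UMIs and ASER 2 UMIs.

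The log2 ratio of median UMIs per cell of ASEL over ASER was 0.00593 in the sensory sort and 0.219 in the eat-4 sort, and -0.562 in replicate 1 and -0.745 in replicate 2 of the pan-neuronal sort. Both pan-neuronal libraries went the opposite way to the other sorts, and the difference was not tested. In a library outside the comparison, sorted with reporters of nlp-13, ceh-10, unc-47 and mec-3 together, 14 cells were annotated ASER and 0 ASEL, an ASEL share of 0% with an exact 95% upper bound of 23.2%.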

How the results depend on the processing

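The main comparison called 88 genes higher in ASEL and 66 higher in ASER, and DESeq2's Wald test gave 81 and 68. Without the library block, which pairs both sides of a library (the replicate block), the counts were 20 and 24, and 44 genes were called both ways. Without the filter on low counts they were 114 and 184, and with at least 20 UMIs over all sums, an alternative added after seeing the data, 158 and 188. Without mitochondrial and ribosomal protein genes they were 65 and 77. With at least 5 cells of each side (6 libraries) they were 48 and 33, with at least 20 cells (the sensory and eat-4 sorts only) 283 and 195, with cells of at least 500 UMIs (the same sorts) 182 and 136, and with equal cell numbers 58 and 61. Leaving out each library gave 31 to 143 genes higher in ASEL and 34 to 108 higher in ASER. The cause was not tested. The ratio of UMIs per cell, 0.83 over 4 libraries, was 1.65 with at least 5 cells, 1.08 with at least 20 cells and 1.11 in cells of at least 500 UMIs, on the other side of 1. The ratio of ASEL to ASER cells stayed under 1 in the alternatives run. Of 51 named genes that were tested, 0 changed direction in the settings in which they passed the filter, which were 34 of them with at least 5 cells, 49 with equal cell numbers, 43 without the eat-4 sort, 45 without the sensory sort and all 51 otherwise. Without the block 17 lost their call, among them F45D3.4, nlp-14, flp-9, nlp-5, nlp-78, ins-14, ins-23 and ins-26. With a robust spread estimate flp-9, nlp-13, nlp-5, ins-23 and ins-26 lost theirs, and under DESeq2 nlp-13 and nlp-50. The depth of the ASEL sums limits genes such as cog-1.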

Other observations

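Of 252 nuclear hormone receptor genes in the files 4 passed, with 3 called higher in ASEL (nhr-105, nhr-21 and nhr-277) and 0 higher in ASER, beside 15.3% and 11.5% of all tested genes, the log2 fold changes of nhr-21 and nhr-277 being 1.64 ± 0.28 and 0.90 ± 0.30. Without the filter 154 had UMIs, with 7 called higher in ASEL and 1, nhr-230, higher in ASER, beside 1.14% and 1.83% of all genes in that fit. nhr-34 had 43, 24, 1 and 1 UMIs in ASEL and 6, 7, 0 and 0 UMIs in ASER of the sensory sort, the eat-4 sort and pan-neuronal replicates 1 and 2.

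Receptor genes for neuropeptides were called on both sides. frpr-13, npr-2 (0.98 ± 0.28) and npr-34 (0.79 ± 0.27) were called higher in ASEL of 3 tested among 68, where 15.3% of all tested genes were. Without the filter frpr-5 was also called higher in ASEL, with 26 UMIs in ASEL and 3 UMIs in ASER, and npr-7, npr-12 and npr-26 higher in ASER. npr-26 had 2 UMIs in ASEL and 171 UMIs from 116 cells in ASER. The homeobox gene ceh-23 was called higher in ASEL at 0.97 ± 0.33.

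Single cells carried some peptide genes. In ASEL of pan-neuronal replicate 1, all 35 UMIs of flp-1 and 67 of the 70 UMIs of nlp-49 were in 1 cell of 1110 UMIs, which held 2 UMIs of gcy-7, gcy-14 and lim-6 together and 0 of gcy-22, gcy-19 and ins-3. Both genes had 0 UMIs in ASER. The most abundant transcripts that differed were R102.2 (1.27 ± 0.24), swm-1 (1.96 ± 0.26) and droe-4 (1.91 ± 0.30), all called higher in ASEL. eat-4, the vesicular glutamate transporter gene, had 199 UMIs in ASEL and 233 UMIs in ASER of the sort that used its reporter, and 7 UMIs in ASEL and 12 UMIs in ASER over the other 3 libraries. In that sort this was 4136 CPM in ASEL and 1225 CPM in ASER, from 56 of 74 ASEL cells and 93 of 298 ASER cells. By CPM, ASEL was higher in 2 libraries and ASER in 2. The gene was not called without the filter (adjusted p = 0.25, edgeR). It was called higher in ASEL when genes with at least 20 UMIs were tested (adjusted p = 0.027, edgeR).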
